A study of Mus musculus with 576 samples.

Results

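The genes described here are 10 transcription factors grouped around the splanchnic mesenchyme, the tissue that wraps the gut and its derived organs. Not all of them are known mainly from this tissue. They are the forkhead factors Foxf1, Foxf2, Foxl1, Foxc1, Foxc2, Foxd1, Foxp1 and Foxp2, and the odd-skipped related factors Osr1 and Osr2. They were chosen by gene symbol, and all 10 were found, each under 1 identifier, among the 36658 genes listed for the 3 mouse lines of the study. The cells were GFP+ cells sorted from the dorsal pancreas of mixed-sex mouse embryos on a C57BL/6J background at embryonic day (E) 12.5 and profiled 1 by 1 with Smart-seq2, a plate method without molecular identifiers. No group was treated. In Nkx2.5-Cre;mTmG embryos (Nkx2.5 line) and Nkx3.2-Cre;mTmG embryos (Nkx3.2 line), a Cre placed at the Nkx2.5 or Nkx3.2 locus switches a membrane reporter at Rosa26 from Tomato to GFP, so that GFP marks cells that have expressed the driver and their descendants. In Prox1-GFP embryos (Prox1 line), a BAC transgene reports current Prox1 activity and no Cre is present. Each line filled 2 plates of 96 wells, and no animal or litter is named, so each line is 1 sample, plates are not replicates, and no test was made.

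Forkhead proteins bind DNA through a winged-helix domain, and Osr proteins through zinc fingers. Foxf1, Foxf2 and Foxl1 are known as targets of Hedgehog signalling in the mesenchyme next to gut epithelium. Foxc1 and Foxc2 act in paraxial and vascular mesoderm, and Foxd1 in the stroma of the kidney. Foxp1 and Foxp2 are repressors used by many tissues, with roles in lung and gut muscle. Osr1 is an early gene of intermediate and lateral plate mesoderm, and Osr2 its close relative in limb, palate and kidney mesenchyme.

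After filters on depth and quality, 549 of 576 cells were left, with 224814 to 1512740 counts and a median of 901156. State was read from 3 genes at a gate of 20 CPM (counts of a gene scaled to a fixed library total), in the order Epcam for epithelial, Upk3b for mesothelial and Vim for mesenchymal. This gave 398 mesenchymal cells (82 and 74 on plates 6A and 6B of the Nkx2.5 line, 89 and 77 on plates 7A and 7B of the Nkx3.2 line, 33 and 43 on plates 8A and 8B of the Prox1 line), 59 and 49 epithelial cells on plates 8A and 8B, 22 mesothelial cells (4 in the Nkx2.5 and 18 in the Nkx3.2 line) and 14 cells without a state. In the Nkx3.2 line, 7 further cells passed the Epcam gate, with mixed markers. Of 7 epithelial markers 3 were at 1 CPM or more (Epcam, Krt8 and Krt18), with a sum of 290.5 CPM, against 7 markers and 4226 CPM in the Prox1 epithelium, and Cdh1, Pdx1 and Cldn6 were at 0. Pooled over the 7 cells, all 7 mesothelial markers were at 1 CPM or more, Upk3b at 428 CPM among them, and 4 of the 7 cells were also past the Upk3b gate, while the lowest cell held 1.34 CPM over the whole list. They are called Epcam+ cells of the Nkx3.2 line below and are not counted as epithelium. Over the 6 mesenchymal markers the summed level was 4493 to 5355 CPM in mesenchymal cells and 269 CPM in the Prox1 epithelium. Markers of other cell types were low in the mesenchyme but not all at 0. The 4 endothelial markers summed to 49.7 to 50.6 CPM, most of it Pecam1 (40.96 to 42.7 CPM), with Cdh5 at 0 and a highest cell of 799 CPM. The neural crest gene Sox10 stood at 0.0252 CPM or less, and the 3 red blood markers summed to 0.658 to 22.9 CPM, with a highest cell of 1782 CPM for Nkx3.2. Over the 7 epithelial markers the mesenchymal sums were 14.97 to 24.4 CPM, with Cdh1 at 0.0692 CPM or less and Pdx1 at 0. The 3 immune markers summed to 0.881 to 31.1 CPM. Of these Tyrobp reached 24.4 CPM in the Prox1 mesenchyme, all from 1 of its cells, and the part of cells with such markers in the values below was not tested. Few cells lay near a gate, 2 for Epcam, 1 for Upk3b and 7 for Vim.

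The 10 genes fell into 2 sets by level. Foxp1, Foxp2, Osr1 and Osr2 were read in 49 to 376 of the 549 cells. Foxf1, Foxf2, Foxl1, Foxc1, Foxc2 and Foxd1 were read in 0 to 22 cells, so that as a set they were at or near 0 in these mesenchymal cells. The plot of detection by gene shows this gap.

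**Figure D1:**
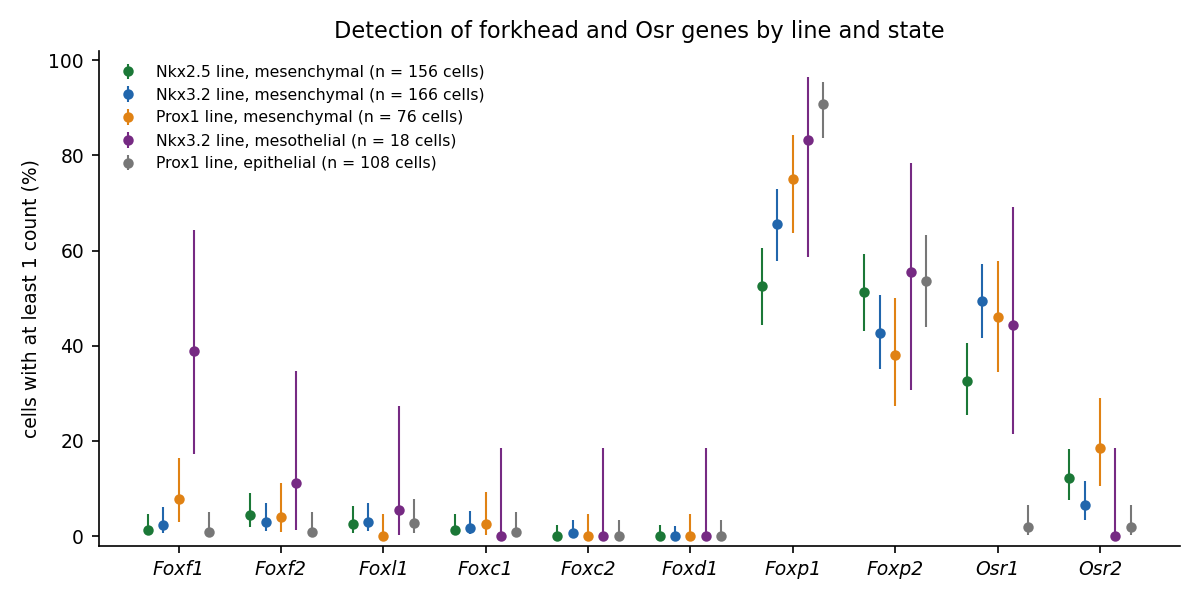
Share of cells with at least 1 count of each gene (percent), by line and state, with exact 95% binomial intervals that cover counting error only. In all, 6 of the 10 genes lie near 0 in the mesenchymal cells of every line, Foxf1 reaches 38.9% in Nkx3.2 mesothelial cells, and Osr1 and Osr2 lie at 1.85% in the Prox1 epithelium.

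Of the sparse genes, 3 stand side by side on chromosome 8 (GRCm38, GENCODE M21), in the order Foxf1 (chr8:121084386-121088144), Foxc2 (chr8:121116171-121118895) and Foxl1 (chr8:121127940-121130644), all on the plus strand, with 28026 and 9044 bases between neighbours. Foxf2 (chr13:31625816-31631403) and Foxc1 (chr13:31806633-31812476) lie 175229 bases apart on chromosome 13, which also holds Foxd1 (chr13:98354242-98359305). The genes read in many cells lie elsewhere: Foxp1 at chr6:98925338-99522721 (minus strand), Foxp2 at chr6:14901349-15441977, Osr1 at chr12:9570116-9581500 and Osr2 at chr15:35296098-35303305.

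Because paralogs can trade reads, the annotated transcripts of each gene were compared in words of 31 bases, the default word length of the quantifier. Between 0% (Osr2) and 3.57% (Foxf2) of a gene's words also occur in transcripts of any other gene. The longest run shared by each pair of paralogs is shown here with its flanks. How reads were assigned between paralogs was not tested. Each window is read 5′ to 3′ on the strand of the gene from the GENCODE M21 transcripts, lies in coding sequence, and has in capitals the bases that differ between the pair.
Foxf1, chr8:121084642-121084712, plus: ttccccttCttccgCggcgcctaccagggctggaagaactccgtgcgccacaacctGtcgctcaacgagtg
Foxf2, chr13:31626479-31626549, plus: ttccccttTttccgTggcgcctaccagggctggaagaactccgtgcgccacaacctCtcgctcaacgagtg
Foxc1, chr13:31807631-31807713, plus: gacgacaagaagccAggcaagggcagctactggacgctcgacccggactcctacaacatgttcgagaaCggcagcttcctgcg
Foxc2, chr8:121117017-121117099, plus: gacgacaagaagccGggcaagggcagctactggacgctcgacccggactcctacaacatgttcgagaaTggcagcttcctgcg
Foxp1, chr6:99075930-99075994, minus: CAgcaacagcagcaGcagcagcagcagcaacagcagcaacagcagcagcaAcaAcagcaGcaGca
Foxp2, chr6:15377942-15378006, plus: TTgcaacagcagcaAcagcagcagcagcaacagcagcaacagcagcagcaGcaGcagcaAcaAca
Osr1, chr12:9579720-9579772, plus: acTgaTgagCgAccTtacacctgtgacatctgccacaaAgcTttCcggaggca
Osr2, chr15:35300882-35300934, plus: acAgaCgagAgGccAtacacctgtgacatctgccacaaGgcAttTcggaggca
The Foxf run of 41 bases and the Foxc run of 53 bases code for parts of the forkhead domain, the Foxp run of 35 bases for a glutamine repeat, and the Osr run of 23 bases for part of a zinc finger. The Osr run is shorter than 1 word. GC content of the longest transcript was 54.4% to 62.02% for the 6 sparse genes, 53.6% and 57.01% for Osr2 and Osr1, and 42.6% and 44.9% for Foxp2 and Foxp1. Its part in detection was not tested.

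Osr1 was the gene of this group with the sharpest split between the mesenchyme and the Prox1 epithelium. In the mesenchyme its summed level was 83.4 CPM for the Nkx2.5 line (exact 95% Poisson interval 81.95 to 84.8), 107.8 CPM for Nkx3.2 (106.1 to 109.5) and 143.8 CPM for Prox1 (140.7 to 146.9). Reads were found in 51, 82 and 35 of these cells, or 32.7%, 49.4% and 46.1%. In the Prox1 epithelium Osr1 had 3 counts in all, 0.033 CPM, in 2 cells (1.85%, 0.225% to 6.53%). Intervals throughout cover the counting error of reads or cells only, and not the spread between plates. PCR copies are counted as reads, so the Poisson intervals are too narrow as intervals on molecules.

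Within the mesenchyme Osr1 differed strongly from cell to cell. Among the cells that held it, the lowest, median and highest level were 0.742, 196 and 917 CPM for Nkx2.5, 1.20, 154.99 and 1001 CPM for Nkx3.2, and 1.996, 170.2 and 1607 CPM for Prox1. Most mesenchymal cells of each line had no count of it, and the median over all of them was 0 CPM. In 2 lines the plates lay apart. In the Nkx2.5 line plate 6A stood at 41.7 CPM and plate 6B at 128.9 CPM, in the Prox1 line plate 8A at 244.8 CPM and plate 8B at 74.3 CPM, and in the Nkx3.2 line both plates were close, at 111.4 and 102.4 CPM. Detection moved with them, with 18 of 82 cells on plate 6A against 33 of 74 on plate 6B.

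Osr2 followed Osr1 in being read more in the mesenchyme than in the Prox1 epithelium, at a lower level and in fewer cells. For Nkx2.5, Nkx3.2 and Prox1 it stood at 12.97, 7.15 and 26.3 CPM, in 19, 11 and 14 mesenchymal cells (12.2%, 6.63% and 18.4%). It had few reads between none and many: all 44 of these cells had at least 10 counts, and the lowest level in any of them was 21.7 CPM. In the Prox1 epithelium it was found in 2 cells, at 52.2 and 62.2 CPM, which gave a summed level of 0.965 CPM. None of the 18 Nkx3.2 mesothelial cells held it, a count of 0 that allows a share of up to 16.7% if 3 cells are set in place of 0 (exact 95% upper limit 18.5%), while 1 of the 4 Nkx2.5 mesothelial cells did, at 168.1 CPM.

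The mesenchymal and epithelial cells of the Prox1 line came from the same 2 plates. The ratio was taken as (CPM + 1) over (CPM + 1) on summed counts, for genes at 5 CPM or more on either side, and a gene was called where the ratio was at least 2 in the same direction on both plates. Of the 10 genes, 4 passed the filter on level, and 2 of them, Osr1 and Osr2, were called higher in the mesenchyme, where 9.43% of 12414 genes were called so. None was called lower, against 13% of genes. Osr1 was 140.1-fold higher, with 72.1- and 240.6-fold on the single plates, and Osr2 13.9-fold higher, with 8.85- and 22.9-fold. Both differences rested on an epithelial level near 0. Foxp1 and Foxp2 passed the filter, and their ratios of 1.25 and 1.22 were below the fold.

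Foxp1 was the most widely read gene of the group and was read in every state. Mesenchymal levels for Nkx2.5, Nkx3.2 and Prox1 were 59.9, 83.1 and 107.9 CPM, beside 86.2 CPM in the Prox1 epithelium, 82.7 CPM in the 18 Nkx3.2 and 116.7 CPM in the 4 Nkx2.5 mesothelial cells, and 175.5 CPM in the 7 Epcam+ cells of the Nkx3.2 line. The plates of each line lay close, at 59.9 on both, 82.6 and 83.8, and 118.8 and 100.4 CPM in the mesenchyme. Levels were in the same range, but shares of cells were not: Foxp1 was read in 52.6%, 65.7% and 75% of mesenchymal cells and in 98 epithelial cells, or 90.7%. With each cell thinned to 100000 counts the shares were 46.2%, 61.4%, 71.1% and 81.5%, in the same order. Each line is 1 sample, so whether these shares differ between lines was not tested.

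**Figure D2:**
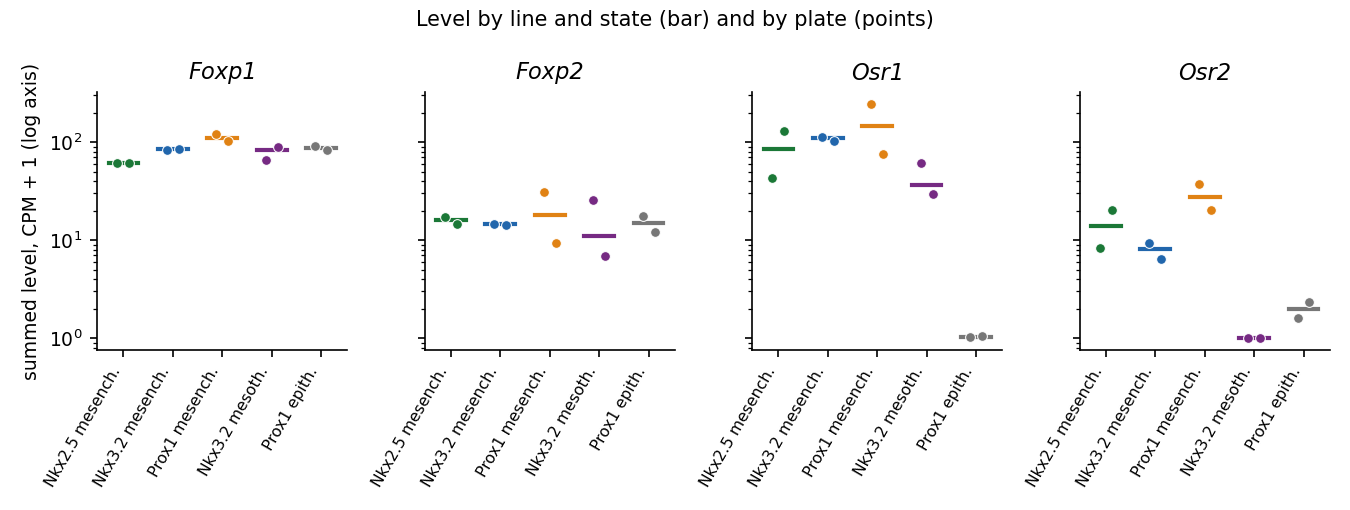
Summed level of the 4 widely read genes by line and state (horizontal lines) and by plate (points), as CPM + 1 on a log axis. Foxp1 lies between 59.9 and 107.9 CPM in the mesenchyme of the 3 lines and the Prox1 epithelium, while Osr1 falls from 83.4 CPM or more in the mesenchyme to 0.033 CPM in the Prox1 epithelium and its plates lie far apart in the Nkx2.5 and Prox1 lines.

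Foxp2 was read in about as many cells of either state but mostly at a few counts. Its level was 14.9, 13.5 and 17.2 CPM in the mesenchyme of the 3 lines and 13.9 CPM in the Prox1 epithelium, and it was found in 80, 71 and 29 mesenchymal cells (51.3%, 42.8% and 38.2%) and in 58 epithelial cells (53.7%). With at least 10 counts as the limit, 16, 18, 9 and 24 cells were left. The median level in cells that held it was 3.29 to 8.32 CPM in the mesenchyme, and single cells reached 874, 488 and 530 CPM. A single cell carried 82.4% of the Foxp2 counts of plate 6B, and another 57.1% of those of plate 8A. After thinning it was found in 21.8%, 21.7% and 23.7% of mesenchymal cells and in 30.6% of epithelial cells.

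Between genes, levels were compared per kilobase of transcript. In the mesenchyme Osr1 stood highest in every line, at 64.5, 83.4 and 111.3 CPM per kb of the mean annotated transcript, followed by Foxp1 at 34.1, 47.3 and 61.4 CPM per kb. Osr2 came next for Nkx2.5 and Prox1, at 8.51 and 17.2 CPM per kb, and Foxp2 for Nkx3.2, at 6.72 against 4.70 CPM per kb for Osr2. With the longest transcript as the length, Foxp1 fell to between 8.35 and 15.03 CPM per kb and Osr1 to between 41.4 and 71.5 CPM per kb, and Osr2 stood above Foxp2 in all 3 lines. Foxf1 was at 1.03 CPM per kb or less in the mesenchyme, and the other 5 sparse genes at 0.29 CPM per kb or less.

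Foxf1 was at the floor in nearly all mesenchymal cells. The Nkx2.5 line had 4 counts in 2 cells (0.0252 CPM, 1.28% of cells), and the Nkx3.2 line 51 counts in 4 cells (0.343 CPM, 2.41%), 92.2% of them from a single cell at 47.2 CPM. The Prox1 line held it in 6 of 76 cells (7.89%), from 1.52 to 71.98 CPM per cell, at a summed level of 2.48 CPM (2.09 to 2.92), with 0.340 CPM on plate 8A and 3.95 CPM on plate 8B. With at least 10 counts as the limit, 0, 1 and 3 cells of the 3 lines were left. In the Prox1 epithelium 1 cell held a single count. All 6 Foxf1 cells of the Prox1 mesenchyme also held Foxp1, and 4 of them Osr1. Among the Prox1 mesenchymal cells without Foxf1, 72.9% held Foxp1 and 44.3% Osr1, so these 6 cells show no clear link.

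The cells with the highest share of Foxf1 were mesothelial. It was read in 7 of 18 Nkx3.2 mesothelial cells (38.9%, 17.3% to 64.3%), from 0.993 to 45.3 CPM, and in 2 of 4 Nkx2.5 mesothelial cells, at 81.6 and 113.96 CPM. Their summed levels were 9.92 CPM (8.42 to 11.6) and 55.02 CPM (48.02 to 62.8), with 15.8 and 8.23 CPM on plates 7A and 7B, and on plates 6A and 6B, which held 2 mesothelial cells each, 0 and 97.9 CPM. Together 9 of 22 mesothelial cells held Foxf1, against 12 of 398 mesenchymal cells, and 7 of the 9 had at least 10 counts. The 7 Epcam+ cells of the Nkx3.2 line, 4 of them past the Upk3b gate, had none, a count of 0 that allows a share of up to 42.9% by the same rule (exact upper limit 40.96%). After thinning to 100000 counts, 4 of the 18 Nkx3.2 mesothelial cells still held it (22.2%), against 1.20% of the mesenchymal cells. Few mesothelial cells with Foxf1 held Osr1 (1 of 9), while 8 of the 13 without Foxf1 did. These are counts over few cells, chosen for description after their values were seen.

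**Figure D3:**
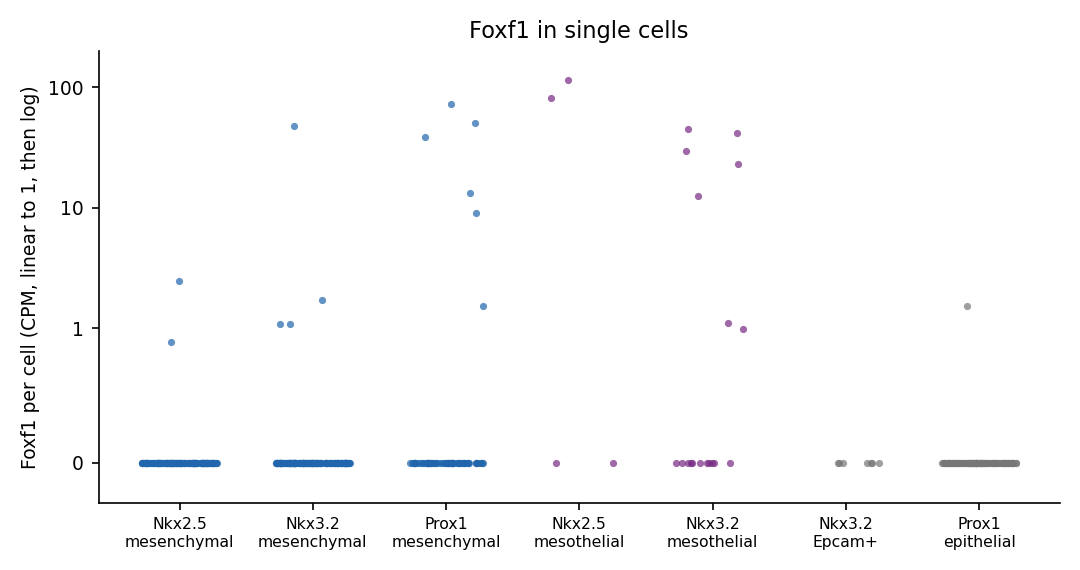
Foxf1 level of every cell in CPM (axis linear up to 1, then log), by line and state, with points spread sideways at random. Mesothelial cells reach 45.3 CPM in the Nkx3.2 and 113.96 CPM in the Nkx2.5 line, though 11 of 18 and 2 of 4 of them are without Foxf1. Most cells of every other group lie at 0, with single mesenchymal cells up to 47.2 CPM (Nkx3.2) and 71.98 CPM (Prox1).

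The mesothelial and mesenchymal cells of the Nkx3.2 line were compared by the same ratio, but only plate 7B held at least 5 cells of both states (15 and 77), so that a call rests on 1 plate. Of the 10 genes 5 passed the filter. Foxf1 was called higher (8.13-fold, and 9.23-fold on plate 7B), in a comparison that called 13.9% of 11888 genes higher. Called lower were Osr2 at 0.123 of the mesenchymal level, Osr1 at 0.334 and Foxp2 at 0.764, which was 0.478 on plate 7B, beside 16.1% of genes called lower. Foxp1 was level, with a ratio of 0.996. The calls on Osr1 and Foxp2 depended on the gates, and with median-of-ratios scaling the pooled Foxp2 ratio was 1.12. With Upk3b read first, an alternative chosen after seeing the data that moves 4 cells into the mesothelial state, their ratios were 0.574 and 0.960 and neither was called. All 7 Epcam+ cells together held Osr1 at 115.1 CPM, in 6 of the 7. Foxf1 (6.98-fold) and Osr2 (0.123) were called there too.

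Foxf2, the relative of Foxf1, had 8, 11 and 39 counts in Nkx2.5, Nkx3.2 and Prox1 mesenchyme, in 7, 5 and 3 cells. Only 2 cells, both of the Prox1 line, had at least 10 counts, at 13.1 and 31.5 CPM. None of the 12 mesenchymal cells with Foxf1 held Foxf2. With Foxf2 in only 15 of all 398 mesenchymal cells, this lack of overlap cannot be read as a result. Foxl1 had 11 counts in 4 Nkx2.5 cells and 7 counts in 5 Nkx3.2 cells, and no Prox1 mesenchymal cell had a full count. The highest Foxl1 level in any cell was 5.62 CPM.

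Foxc1 was found in 2, 3 and 2 mesenchymal cells, and 96.7% of its Nkx3.2 counts came from 1 cell at 49.03 CPM. An epithelial cell of the Prox1 line held it at 15.98 CPM. Foxc2 was read in a single cell of the whole data, an Nkx3.2 mesenchymal cell at 40.9 CPM that held neither Foxf1 nor Foxl1, its chromosomal neighbours. Foxd1 had no read in any of the 549 cells. For Foxc2 and Foxd1 a count of 0 allows, by the rule of 3 cells, a share of up to 1.92% of the Nkx2.5 and 3.95% of the Prox1 mesenchymal cells (exact upper limits 2.34% and 4.74%). These limits are shares of cells and follow from the number of cells, so a smaller share could have been missed. A low level within a cell could also have been missed at this depth.

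Among the genes around the sparse members, Mthfsd, an enzyme gene of folate metabolism in the same stretch of chromosome 8, stood at 42.5, 47.6 and 53.2 CPM in the mesenchyme of the 3 lines, and Exoc2 and Gmds of chromosome 13, for an exocyst subunit and a fucose pathway enzyme, at 40.04 to 55.4 and 15.5 to 23.7 CPM. Foxq1, which lies 64839 bases from Foxf2, had no count in any cell. The genes looked at beside the members were 6 (Mthfsd, Irf8, Foxq1, Gmds, Exoc2 and the paralog Foxp4, which is no neighbour). Of 5 that passed the filter, Gmds was called lower in the mesenchyme than in the epithelium of the Prox1 line (0.480), beside 13% of all genes. Of 4 that passed it, Mthfsd was called higher in the mesothelium than in the mesenchyme of the Nkx3.2 line (2.56-fold), beside 13.9%.

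The wider forkhead family served as a frame for the members. The tables hold 44 genes named Fox with a letter and a number, 36 of them outside the members. Of those 36, 11, 12 and 11 were at 1 CPM or more in Nkx2.5, Nkx3.2 and Prox1 mesenchyme and 13 in the Prox1 epithelium. The highest was Foxn3, a checkpoint gene, at 98.8, 72.4 and 86.9 CPM in the mesenchyme and 87.6 CPM in the epithelium. Next came Foxk2 (42.03 CPM) and Foxj3 (37.05 CPM) for Nkx2.5, Foxj3 (39.1 CPM) and Foxk2 (27.4 CPM) for Nkx3.2, and Foxj3 (58.2 CPM) and Foxo3 (31.5 CPM) for Prox1. In the epithelium Foxa2, a pioneer factor of endoderm, led at 124.6 CPM, with Foxo3 at 47.95 CPM, while no mesenchymal cell of any line held Foxa2. Of the 36, 12 passed the filter when mesenchyme and epithelium of the Prox1 line were compared. Foxa2 and Foxa3 were the 2 called lower in the mesenchyme, beside 13% of all genes. None was called higher, beside 9.43%. In the mesothelium of the Nkx3.2 line Foxn3, Foxj3 and Foxn2 led at 63.5, 49.4 and 21.3 CPM. Of 9 that passed the filter there, Foxj2 was called higher (4.63-fold on plate 7B, 1.28-fold on both), beside 13.9% of all genes. Foxo1 (0.0672) and Foxo3 (0.547) were called lower, beside 16.1%.

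Hedgehog genes were looked at because Foxf1, Foxf2 and Foxl1 are known to respond to this pathway. Of 15 listed genes, 10 passed the filter in the Prox1 line, with 5 called higher in the mesenchyme and 3 lower, where 9.43% and 13% of all genes were called so. Higher were the transcriptional effectors Gli3 (44.4-fold, 62.9 against 0.439 CPM) and Gli2 (13.2-fold), the pathway inhibitor Sufu (2.02-fold), and the signals Wnt5a (16.6-fold) and Bmp4 (6.55-fold). Lower were the receptor Ptch1 (0.303, 9.21 against 32.7 CPM), the decoy receptor Hhip (0.0423) and the cyclin Ccnd1 (0.329). Gli1, the direct target most used as a readout of the pathway, stood at 0.22, 0.908 and 2.13 CPM in the mesenchyme of the 3 lines and was found in 2, 4 and 1 cells. It had no count in the epithelium. Ptch1 was read in 32, 57 and 18 mesenchymal and in 68 epithelial cells. In the Nkx3.2 mesothelium Wnt5a (0.154) and Ccnd1 (0.370) were called lower, beside 16.1% of genes, and none of the 15 higher, beside 13.9%.

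The 2 Cre lines were compared to ask whether mesenchyme descended from Nkx2.5- and from Nkx3.2-expressing cells differs in these genes. A call was made where all 4 pairs of plates passed the fold in 1 direction. Each line filled its own plates, so line and plate cannot be told apart. The median number of genes per cell was 5750 in the Nkx2.5 and 7235 in the Nkx3.2 line, and its part in the ratios was not tested. None of the 4 genes that passed the filter was called, beside 1.2% of 11372 genes called higher in the Nkx2.5 line and 1.97% called lower. The ratios were 0.725 for Foxp1, 1.10 for Foxp2, 0.775 for Osr1 and 1.71 for Osr2. Foxp1 was lower in the Nkx2.5 line in all 4 pairs, within 0.718 and 0.729, short of the fold. Osr1 ran from 0.380 to 1.26 over the pairs, and without plate 6B it was called lower (0.393), and without plate 6A Osr2 was called higher (2.48-fold).

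The mesenchymal cells of the Prox1 line were set against those of the Nkx3.2 line in the same way. Prox1-GFP libraries carry a number series of their own, so line and batch cannot be told apart. Osr2 was called higher in the Prox1 line (3.34-fold, 2.21- to 5.72-fold over the 4 pairs), beside 1.23% of 11504 genes, and none of the 4 genes was called lower, beside 1.92%. Its share of cells was 18.4% against 6.63%. With a pseudocount of 5 CPM (2.57-fold) or a fold of 4 this call was lost. Foxp1, Foxp2 and Osr1 had ratios of 1.29, 1.26 and 1.33. Without plate 8B, Osr1 (2.26-fold) and Foxp2 (2.16-fold) were called as well, so for these genes 1 plate decided the call.

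Inside the mesenchyme, cells were divided at 20 summed CPM of a pair of genes, and a gene was called where it passed the fold in the same direction in every line with 10 cells or more on both sides. Past the Nkx2-5 and Tlx1 gate, a pair known from splenopancreatic mesenchyme, 4 of the 10 genes passed the filter on level. Of these Osr1 was lower in all 3 lines and the only 1 called. For Nkx2.5, Nkx3.2 and Prox1 it stood at 35.9 against 110.2, 41.2 against 145.4 and 54.7 against 182.1 CPM, ratios of 0.331, 0.288 and 0.304. Only 0.284% of 10581 genes were called lower in this division and 0.0945% higher. It was lower on each of the 6 plates, with ratios between 0.156 and 0.524. Cells with Osr1 were fewer too, 21.8% against 38.6%, 32.8% against 58.3%, and 29.2% against 53.8%, with median depths of 1082140 and 1025580, 898518 and 893998, and 750404 and 798629 counts. The exact intervals of these shares overlap in the Nkx2.5 and Prox1 lines and stand apart in the Nkx3.2 line. Osr2 had ratios of 0.192, 0.443 and 1.28, and Foxp1 of 1.06, 0.878 and 1.44.

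**Figure D4:**
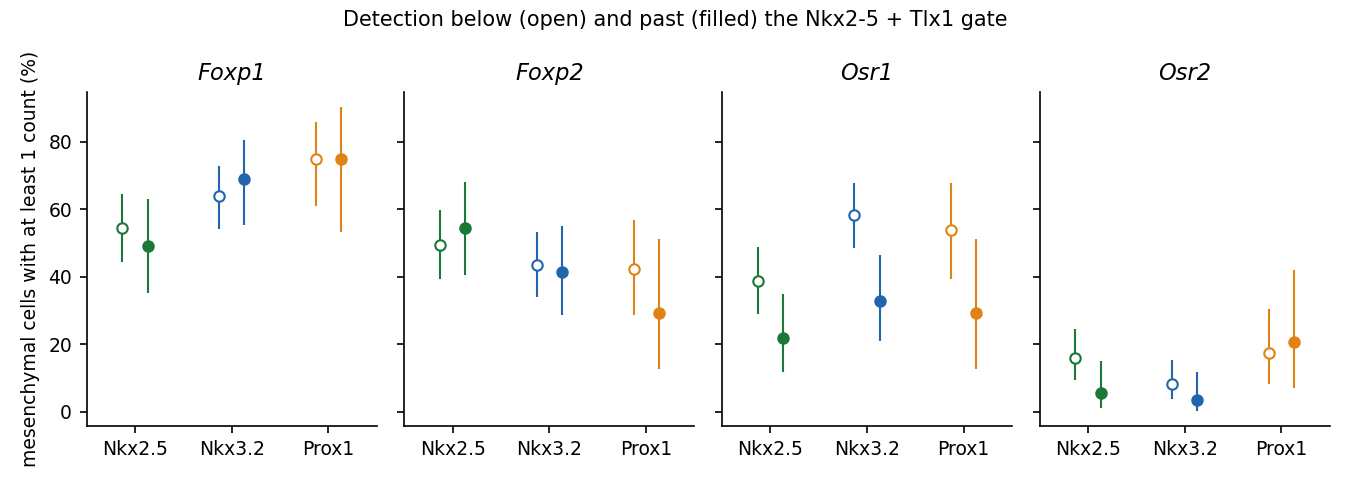
Share of mesenchymal cells with at least 1 count (percent) below and past 20 summed CPM of Nkx2-5 and Tlx1, by line, with exact 95% binomial intervals that cover counting error only. Osr1 is found in a smaller share of the cells past the gate in each of the 3 lines, and Foxp1 has no common direction.

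Past the smooth muscle gate (Acta2 and Tagln) none of the 4 genes that passed the filter was called, beside 0.0568% of genes higher and 0.208% lower. Osr2 was at 0 in the 13 gated cells of the Prox1 line and at 32.7 CPM in the other 63. The exact upper limit of that share is 24.7%, above the 22.2% of the other cells with Osr2. Only 1 plate had enough cells on both sides. Past the proliferation gate (Mki67 and Top2a) none of 4 was called, beside 1.94% and 0.264% of genes. Foxp2 had ratios of 0.437, 0.539 and 0.476 there, and Osr1 of 0.631, 0.356 and 0.528. For Foxp2 the plates of the Prox1 line went in opposite directions (0.135 and 3.85). The shares of cells with Foxp2 were 50.9% against 51.5%, 48.6% against 38.04%, and 36.1% against 40%. Past the Gap43 and Syt6 gate only the Cre lines could be compared, with 10 and 20 cells below it, and Osr2 was called higher (4.46- and 2.17-fold), in a division that called 4.23% of genes higher and 1.97% lower. Below the gate 1 cell of each line held Osr2, the shares of cells were 12.3% against 10% and 6.85% against 5%, and the plates of the Nkx3.2 line went in opposite directions (0.739 and 10.3). The Igf1 and Itm2a gate left too few cells on 1 side in every line.

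In single mesenchymal cells the members varied with little relation to each other. A cell held none of the 10 in 16.03%, 7.83% and 9.21% of cases (Nkx2.5, Nkx3.2 and Prox1), 2 of them most often (37.2%, 44.6% and 39.5%), and at most 5. Osr1 and Osr2 were found together in 9, 5 and 8 cells, so that Osr2 was read in 17.6%, 6.10% and 22.9% of cells with Osr1 and in 9.52%, 7.14% and 14.6% of cells without it. Foxp1 and Foxp2 shared 46, 51 and 23 cells, and Foxp2 was read in 56.1%, 46.8% and 40.4% of cells with Foxp1 and in 45.9%, 35.1% and 31.6% of those without. The rank correlation of no pair among the 4 widely read genes went beyond 0.141 in either direction, over the mesenchymal cells of a line, which share plates and differ in depth.

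The genes most like a member were ranked, as a description, by the mean over lines of the rank correlation within a line, among 9175 genes read in at least 20% of mesenchymal cells of every line. Foxp1, Foxp2 and Osr1 were read in enough cells for this. Cxcl12, the chemokine made by mesenchymal stroma, was closest to Osr1, at 0.396, with 0.384 to 0.415 over the 3 lines. In cells with Osr1 its level was 273, 628 and 389 CPM, and in cells without it 75.5, 263 and 123.1 CPM. The Wnt5a receptor gene Ror1 (0.276) and the collagen VI gene Col6a2 (0.270) came next. Both were higher in cells with Osr1 in each line, for Ror1 at 152.7, 78.5 and 204 CPM against 65.97, 44.7 and 74.9 CPM. For Foxp1 the nearest were Lima1 (0.227), Fam84a (0.221) and Epha7 (0.219), and for Foxp2 Map2k5 (0.251), Gm17132 (0.234) and Acp2 (0.228). The lowest correlation in a line was 0.0969, 0.115 and 0.125 for Lima1, Fam84a and Epha7. It was 0.182, 0.0786 and 0.147 for Map2k5, Gm17132 and Acp2, and 0.133 and 0.151 for Ror1 and Col6a2. Without proliferating cells Cxcl12 and Map2k5 were again first, with Ror1 in place 3 and Acp2 in place 5. Col6a2 fell to place 25, Fam84a to 26, Lima1 to 45, Gm17132 to 48 and Epha7 to 65. Of all genes ranked, 1% lay above 0.143 for Foxp1, 0.145 for Foxp2 and 0.139 for Osr1.

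**Figure D5:**
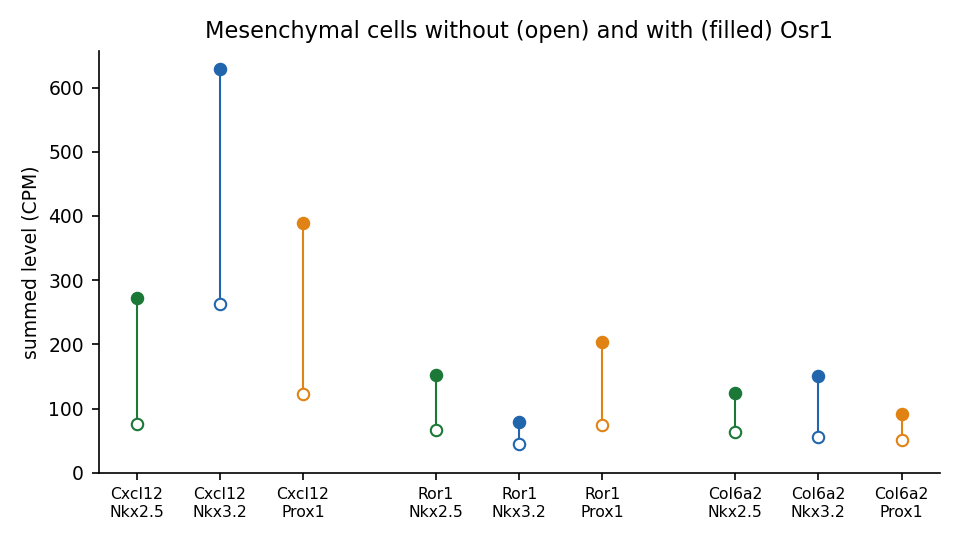
Summed level (CPM) of the 3 genes most like Osr1 in mesenchymal cells without and with a count of Osr1, by line. Each of the 9 pairs is higher in cells with Osr1, with the largest difference in CPM for Cxcl12 in the Nkx3.2 line (263 against 628 CPM), and the genes were picked for this likeness.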

How the data were processed

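Per the labels and methods, the authors trimmed Smart-seq2 reads with Trim Galore 0.6.5 and quantified them with kallisto against GRCm38 with GENCODE M21, and deposited estimated counts per gene and cell, 1 table a line. These are expected counts without molecular identifiers, and 36.1% of values above 0 are not whole. Filters followed the methods: a cell needed 1000 genes and 100000 counts, and mitochondrial counts could not exceed 30%. Counts were summed per line, state and plate and scaled to CPM unrounded, with exact 95% Poisson and binomial (Clopper-Pearson) intervals on rounded counts. Detection means at least 1 count. Cells were also thinned to 100000 counts. A ratio used a pseudocount of 1 CPM, genes at 5 CPM or more and plates with at least 5 cells a side. No test was made, since no source used here names animals. The members and lists were chosen with earlier results of these data known. Named genes were all members, the 3 genes most like each member read in at least 10% of mesenchymal cells of every line, the 3 highest other forkhead genes a state, and Hedgehog genes and neighbours past the fold, with Gli1 and Ptch1 in any case. Other genes were named after their values were seen. The code was tested on simulated data (Python 3.11.15, NumPy 2.4.6, pandas 2.3.3, SciPy 1.17.1). Doublets were not called. A marker gene and a division of the mesenchymal cells are not reported here.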

Additional observations from a re-analysis of the deposited data

Results flagged for a closer look

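Past the Gap43 and Syt6 gate, Osr1 stood at 88.1 against 15.6 CPM in the Nkx2.5 line (ratio 5.35) and at 81.99 against 317 CPM in the Nkx3.2 line (ratio 0.261), so that the lines moved in opposite directions. The difference was not tested, and 10 and 20 cells lay below the gate.

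The 13 cells of the Nkx2.5 line without a state, which enter no comparison, also held members: Foxp1 at 53.6 CPM, Foxp2 at 35.1 CPM, Osr1 at 108.3 CPM and Osr2 at 26.6 CPM. Osr1 was read in 5 and Osr2 in 2 of them. The mesenchymal markers summed to 3495 CPM in these cells.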

How the results depend on the processing

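Under every alternative run, Osr1 and Osr2 were called higher in the mesenchyme than in the epithelium of the Prox1 line, and Foxf1 higher and Osr2 lower in the Nkx3.2 mesothelium. The mesothelial Osr2 call rests on 0 of 18 cells, where the exact upper limit of the share is 18.5%. This limit lies above the 6.63% of Nkx3.2 mesenchymal cells with Osr2. Other mesothelial calls were less stable: 1 member in place of 3 was called lower with gates at 100 CPM, with a fold of 4, and, chosen after seeing the data, with the Upk3b gate read first or the Epcam+ cells joined. The Foxp2 ratio there reversed to 1.11 with gates at 100 CPM, 1.12 with median-of-ratios factors and 1.07 with the Epcam+ cells joined, which called 4.63% of genes higher and 7.02% lower. The cause was not tested. For Prox1 against Nkx3.2, 0 members were called higher with a pseudocount of 5 CPM or a fold of 4. A splenopancreatic gate at 100 CPM called 2 members lower, and a proliferation gate at 5 CPM called 1. The shares of all genes called at these gates are not given here. Nor are those of the mesothelial runs with gates at 100 CPM or with Upk3b read first. These counts of members are therefore not set against all genes.

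Over all genes, a pseudocount of 5 CPM called 0.668% higher and 1.05% lower for Nkx2.5 against Nkx3.2, and 0.608% and 0.913% for Prox1 against Nkx3.2. The lower shares of these comparisons were 2.48% and 2.64% with genes at 1 CPM, and 0.957% and 1.03% of all genes with no filter. A fold of 4 called 4.69% and 7.35% for mesenchyme against epithelium, 6.04% and 7.39% for mesothelium, 0.149% and 0.299% for Nkx2.5 and 0.183% and 0.382% for Prox1 against Nkx3.2.

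Leaving out a plate, which leaves fewer pairs to pass, called 14.9% to 15.5% of genes higher and 18.5% to 19.5% lower for mesenchyme against epithelium, with 2 members higher and 0 lower. For Nkx2.5 against Nkx3.2 it called 2.9% to 4.67% and 3.12% to 8.52%, with 0 to 1 members each way, and for Prox1 against Nkx3.2 2.86% to 5.64% and 3.04% to 6.27%, with 1 to 3 members higher and 0 lower. The mesothelial comparison gave 14.1% and 16% without plate 7A, with 1 member higher and 3 lower, and could not be made without plate 7B. No paired analysis was possible because well numbers do not pair samples and no test was made. Ratios within plates stand in the report. Mesothelial values rest on 22 cells.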
